A study of Mus musculus with 12 samples.

Results

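Several genes of the nuclear receptor superfamily that hepatocytes use to sense metabolites and foreign compounds were described here by their N6-methyladenosine (m6A) peaks in mouse liver. The genes were Ppara, Nr5a2, Nr1i3, Nr1h4, Nr1i2, Nr0b2 and Rxra, chosen by name, and every peak that carried their names was taken. Of these 7 genes, 6 had a listed peak, with 10 peaks in all among 17503 named peaks in 10277 genes. Nr1i2 had no listed peak, and no listed peak of any gene lay over its RefSeq span.

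The study set Mettl3-deficient livers against wild-type livers of C57BL/6 mice, with 3 biological replicates of each genotype. From each replicate, fragmented poly(A) RNA precipitated with an anti-m6A antibody (m6A-IP) and unprecipitated input mRNA were sequenced, which gives 12 libraries in 4 groups: Mettl3-deficient m6A-IP, Mettl3-deficient input, wild-type m6A-IP and wild-type input. The sources used here give neither the age of the mice, beyond a title that speaks of postnatal liver, nor the Mettl3 allele and the cells in which it acts. Bulk liver RNA holds all cell types of the tissue, and the peak table gives no expression level with which to check them. Of the 5 hepatocyte marker genes looked for (Alb, Ttr, Apoa1, Cps1 and Hnf4a), 4 had a listed peak. So had 3 of 5 endothelial, 3 of 5 stellate, 4 of 5 Kupffer and leukocyte and 2 of 5 cholangiocyte markers. The called leading peaks of these markers were 2 negative and 2 positive for hepatocytes, 0 and 3 for endothelial cells, 0 and 3 for stellate cells, 1 and 2 for Kupffer cells and leukocytes, and 2 and 0 for cholangiocytes, and their part in the receptor values was not tested.

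METTL3 is the catalytic subunit of the enzyme complex that places m6A on nascent mRNA, most often near stop codons and in long exons. Proteins that read the mark influence, among other things, how long an mRNA lasts. Nuclear receptors are transcription factors whose activity is set by small lipophilic ligands such as fatty acids, bile acids, sterols and drugs. In the liver many of them bind DNA in a pair with the retinoid X receptor, so a single partner protein is shared by several sensing pathways.

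All fold changes and false discovery rates (FDR) below are the authors' own, given per peak for the comparison between the genotypes. Which genotype stands in the numerator is not stated in it. Loss of the methyltransferase is the tested condition, so a negative value likely stands for a lower m6A signal in Mettl3-deficient liver. That reading rests on the design alone, and values are therefore called negative or positive. A peak counted as called when its FDR was 0.05 or below. The deposited log10 FDR has a floor of -434, which 485 peaks (2.77%) share, and the next lowest value is -321. No value per library was used here. Sequencing depth is thus unknown, the spread between mice could not be computed, and whether the deposited FDR takes in that spread is not known. The sources used here also do not say whether a peak's change was corrected for the amount of input RNA, so a change in methylation and a change in transcript amount cannot be told apart.

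The transcript starts of 3 of the genes are shown first, because the only positive changes lay over the starts of Ppara and Nr1i3, while Nr1i2 had no peak. Each stretch holds 10 bases before the RefSeq start and 20 bases from it, on the transcribed strand (RefSeq, GRCm38.p6, the same build as mm10). Capitals mark the first transcribed base and any GGAC, the most common core of the m6A consensus, from that base on.
Ppara: gcgcgggtctGgagacccacagccactgga
Nr1i3: tgccctgggtCcagagtctgggtcctacct
Nr1i2: ccccttactaCattGGACctggggtgtact
The positions were chr15:85735766-85735795 on the plus strand for Ppara, chr1:171213960-171213989 on the plus strand for Nr1i3 and chr16:38294805-38294834 on the minus strand for Nr1i2. The motif GGAC was searched on both strands of the 50 bases from the start. It was absent on both strands in Ppara, and present 1 time in Nr1i3 on the strand opposite to the transcript, thus not in its RNA. In Nr1i2 it was present 1 time on the transcribed strand, beginning at base 5 counted from 1 at the start. Other forms of the consensus were not searched, and the 50 bases cover only part of the Ppara and Nr1i3 peaks. Among 32851 RefSeq start windows of the same length, 18.9% held GGAC on the transcribed strand and 33.3% on either strand. None of the 3 starts opened with A, a base found at 34.4% of the windows. All 3 starts lie inside the RefSeq span of their gene, downstream of its 5′ end. The base and motif readings therefore hold only for the starts shown. The antibody is known to bind also the methylated adenosine next to the mRNA cap, which another enzyme makes, and whether the peaks at these starts hold it was not tested.

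All 10 receptor peaks were called: 8 were negative and 2 positive. Over all listed peaks 76.2% were called, 40.6% as negative and 35.6% as positive. The median log2 fold change of the 10 peaks was -1.46, computed from the authors' deposited table, against 0.34 over all listed peaks. Of the 8 negative peaks, 7 stood at -1 or below, a size that 29.0% of all listed peaks reached as called negative peaks. Both positive peaks stayed under 1 on the log2 scale.

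The sign followed the annotated feature. All 7 peaks labelled 3′ UTR, in 5 genes, were called negative. Among all 9804 listed 3′ UTR peaks 48.9% were called negative and 32.1% positive. The label need not confine a peak to the 3′ UTR, since the wide peaks of Nr0b2 and Nr5a2 cover large parts of their gene spans. Of the 7, 6 stood at -1 or below, against 34.4% of listed 3′ UTR peaks. The 3′ UTR values ran from -2.59 in Nr5a2 to -0.83 in Nr1h4 in the authors' deposited table, with a median of -1.82, against -0.52 over all listed 3′ UTR peaks. Both 5′ UTR peaks were positive, as were 53.4% of all 4252 listed 5′ UTR peaks. That share was 58.8% among the 3380 listed 5′ UTR peaks at distance 0 from a transcript start, where both lay. The single peak in another exon, that of Nr5a2, was negative, a call made in 38.6% of listed exon peaks. The receptor peaks thus took the sign that is the more frequent in each feature class of this table, and no test sets them apart from other peaks there.

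**Figure D1:**
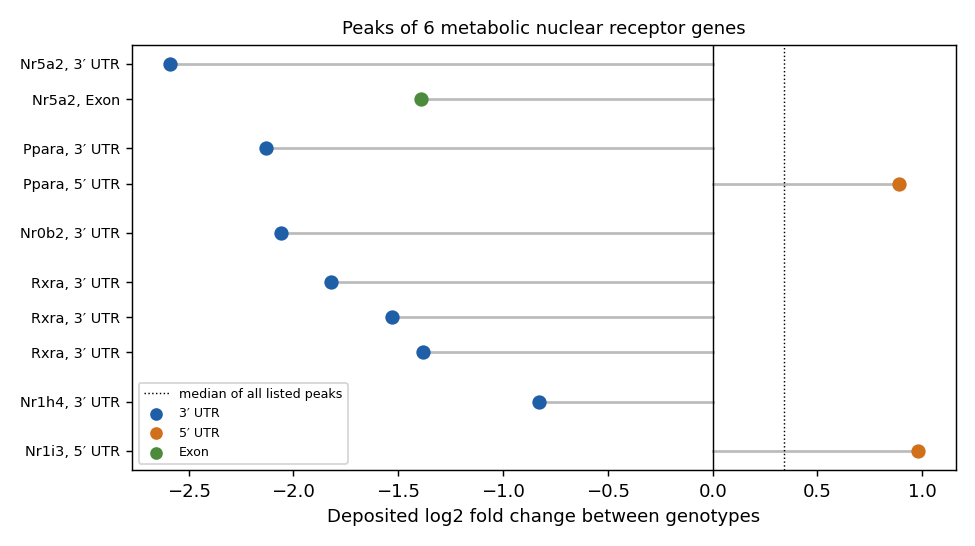
Deposited log2 fold change between the genotypes (horizontal axis) of each of the 10 listed peaks, grouped by gene and coloured by annotated feature, with no error bars because no values per library were used; the dotted line is the median of all listed peaks, 0.34. The 7 peaks of the 3′ UTR lie between -2.59 and -0.83, and the 2 peaks of the 5′ UTR lie at 0.89 and 0.98.

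**Figure D2:**
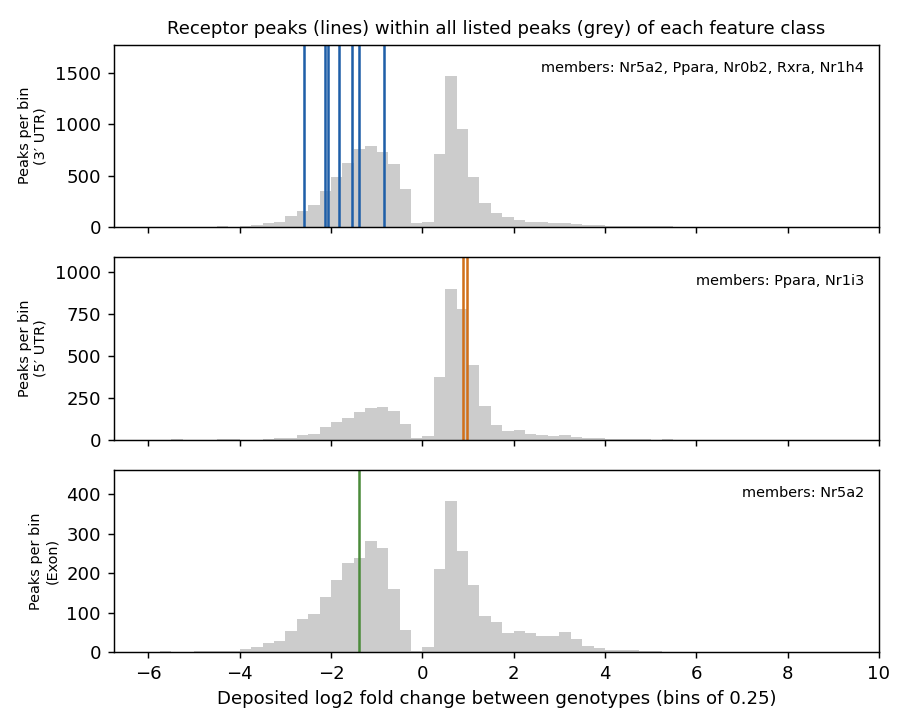
Number of all listed peaks (grey, in bins of 0.25 on the log2 scale) by deposited log2 fold change in the 3′ UTR, the 5′ UTR and other exons, with coloured lines at the receptor peaks. The 3′ UTR lines stand on the negative side and the 5′ UTR lines on the positive side. Of listed 3′ UTR peaks, 3.09% were more negative than the line of Nr5a2 and 41.7% than that of Nr1h4.

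Rxra, which encodes the retinoid X receptor alpha that pairs on DNA with PPARα, FXR, CAR and PXR, held the most peaks of the group. Its 3 peaks all lay in the 3′ UTR on chromosome 2, within the last part of a RefSeq span of 86875 bp that runs from 27676445 to 27763319. According to the authors' deposited table, -1.38 was found for the peak at chr2:27760030-27760239, with a log10 FDR of -103. For the peak at chr2:27760359-27760747 the authors' deposited table gives -1.82, at the FDR floor. Farthest downstream, the peak at chr2:27761852-27762957 has -1.53 in the authors' deposited table, also at the floor. The changes amount to ratios of 0.384, 0.283 and 0.346 in the order of position. They differed among themselves by at most 0.44 on the log2 scale, although 119 bases separate the upstream pair and 1104 bases the downstream pair. Having 3 or more listed peaks was uncommon, at 16.8% of genes, and among 426 genes with at least 3 peaks in the 3′ UTR all of these were called negative in 25.4%.

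Ppara encodes the fatty acid receptor that switches on fat oxidation and ketone production in fasting, and it was the only gene of the group with called peaks of both signs. The peak at chr15:85797975-85802819, 4845 bp wide on the genome and annotated as 3′ UTR, stood at -2.13 with a log10 FDR of -202 in the authors' deposited table. This is a ratio of 0.228, and 7.68% of listed 3′ UTR peaks were more negative. The peak at chr15:85735701-85735972, annotated as 5′ UTR, stood at 0.89, a ratio of 1.85, in the authors' deposited table. It begins 75 bases before the RefSeq start shown above, and 791 bp from the 5′ end of the RefSeq span. From the start shown on, it covers 197 bases. Its evidence was the weakest of the 10, with a log10 FDR of -1.77 and a p-value of 0.01 in the authors' deposited table, and it was not called at an FDR of 0.01. It is also the only Ppara peak of at most 1000 bp on the genome. The Ppara peaks differed by 3.02 on the log2 scale. Called peaks of both signs occurred in 12.4% of all genes and in 27.8% of the 4593 genes with more than 1 listed peak.

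The bile acid receptor gene Nr1h4, which encodes FXR, had the smallest negative change of the group. Its only peak lay at chr10:89454354-89454772 in the 3′ UTR, 120 bp from the 3′ end of the RefSeq span on the minus strand. The value was -0.83, a ratio of 0.563, with a log10 FDR of -46.1 in the authors' deposited table. It was the only negative peak of the 8 above -1, and 41.7% of listed 3′ UTR peaks were more negative.

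Nr0b2 encodes SHP, an atypical receptor that has no DNA-binding domain, is induced by FXR and represses bile acid synthesis. Its only peak covered chr4:133553882-133556536 and stood at -2.06, a ratio of 0.240, with a log10 FDR of -281 in the authors' deposited table. The feature label is 3′ UTR, but the peak begins 506 bp from the start of a gene span of 3311 bp and ends 150 bp before its 3′ end. It therefore covers from 15.3% to 95.5% of the span, and the label does not place the change within the 3′ UTR.

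Nr5a2 encodes LRH-1, a receptor that drives bile acid synthesis genes and is repressed by SHP. It carried the most negative value of the group, -2.59 with a log10 FDR of -119 in the authors' deposited table, a ratio of 0.166. Of all listed 3′ UTR peaks, 3.09% were more negative. That peak, at chr1:136844846-136882357, spans 37512 bp of genome because introns are included, from 66.2% to 98.1% of the gene span. The second Nr5a2 peak, at chr1:136940896-136943343, was assigned to exon 5 of 9 of its transcript and stood at -1.39 with a log10 FDR of -8.60 in the authors' deposited table. Of listed exon peaks, 28.1% were more negative. The Nr5a2 peaks were thus both negative, with 58538 bp of genome between them.

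**Figure D3:**
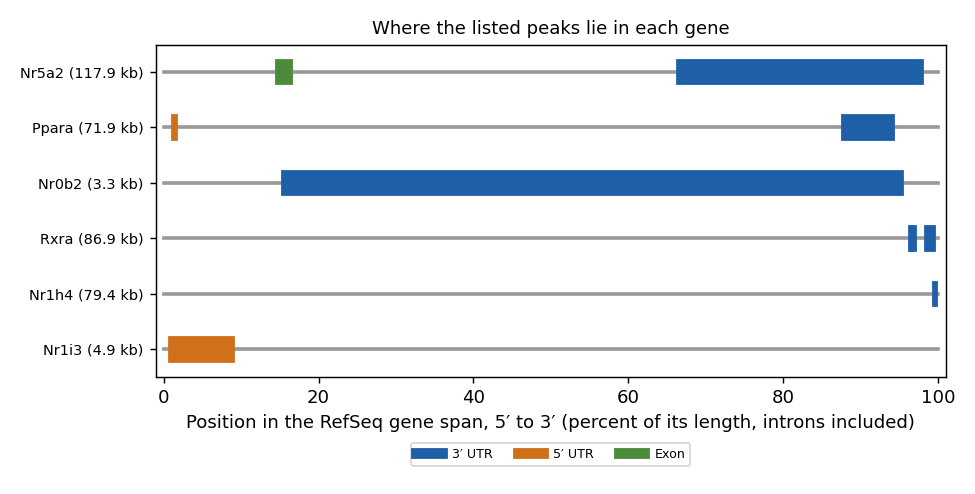
Position of the 10 listed peaks along the RefSeq span of each gene, drawn from the 5′ end at 0 to the 3′ end at 100 percent with introns included; boxes are peaks coloured by annotated feature, with the narrowest drawn at a minimum width, and the upstream pair of Rxra appears as 1 box. The 3′ UTR boxes end between 94.4 and 99.8 percent of the span, but that of Nr0b2 begins at 15.3 percent.

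Of the xenobiotic receptor genes, only Nr1i3 had a listed peak. It encodes CAR, which induces drug-metabolizing enzymes together with PXR, the product of Nr1i2. The only Nr1i3 peak lay at chr1:171213970-171214378 and stood at 0.98, a ratio of 1.97, with a log10 FDR of -30.0 in the authors' deposited table. It begins at the first transcribed base shown above and is 409 bp wide. It runs from 0.73% to 9.04% of a gene span of 4912 bp. Of listed 5′ UTR peaks, 23.8% were more positive. No 3′ UTR peak of Nr1i3 was listed, so the transcript gives no value to set beside the 3′ UTR peaks of the other receptors. For Nr1i2, whose RefSeq span runs from 38248349 to 38294849 on chromosome 16, there is no value at all. A listed peak was present for 42.9% of 21900 protein-coding RefSeq symbols, and the absence of a peak does not show that the transcript carries no m6A.

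By leading peak, the peak with the smallest FDR of each gene, 5 of the 6 receptors were negative and 1 was positive, with a median of -1.94. Over all genes 47.6% had a negative and 33.6% a positive called leading peak, and the median was -0.52. All 10 receptor peaks lay inside the RefSeq span of their gene, and none overlapped another RefSeq gene or another listed peak. Their widths ran from 210 to 37512 bp, and 5 of 10 were wider than 1000 bp on the genome, against 33.5% of all listed peaks. With peaks of at most 1000 bp alone, 3 negative and 2 positive receptor peaks were left.

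The deposited annotation gave the 6 receptors few terms in common beyond nuclear location, DNA binding and transcription. The narrowest were steroid hormone receptor activity and steroid hormone mediated signaling, each held by 31 genes of the table. Of these 31 genes, the 6 receptors included, 21 had a negative and 5 a positive called leading peak, against 47.6% and 33.6% of all genes. These terms were read out after the values were seen. Other nuclear receptors described below can be among the 31 genes, so these counts and those below are not separate observations. The overlap was not counted.

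The wider receptor superfamily gave values on both sides. Of 42 other nuclear receptor genes looked for, 23 had a listed peak, and 15 had a negative and 4 a positive called leading peak, while 4 were not called. Their median leading change was -1.41, against -0.52 over all genes, of which 47.6% had a negative and 33.6% a positive called leading peak. Hnf4a, a regulator of hepatocyte identity, stood at -2.66 at the FDR floor in the authors' deposited table. Nr2f6, an orphan receptor, stood at -2.16 in the 5′ UTR, also at the floor in the authors' deposited table. The retinoic acid receptor gene Rara, whose product pairs with RXR, had -1.90 in the authors' deposited table (log10 FDR -266). The oxysterol receptor gene Nr1h3, which encodes the RXR partner LXR alpha, had -0.58 (log10 FDR -31.1) in the authors' deposited table. In the order of the 25 receptor genes with a called leading peak, Nr5a2 came second from the most negative end, Ppara and Nr0b2 sixth and seventh, Rxra at 12, Nr1h4 at 17 and Nr1i3 at 23. Without values per library, neighbours in that order cannot be told apart beyond their spread.

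**Figure D4:**
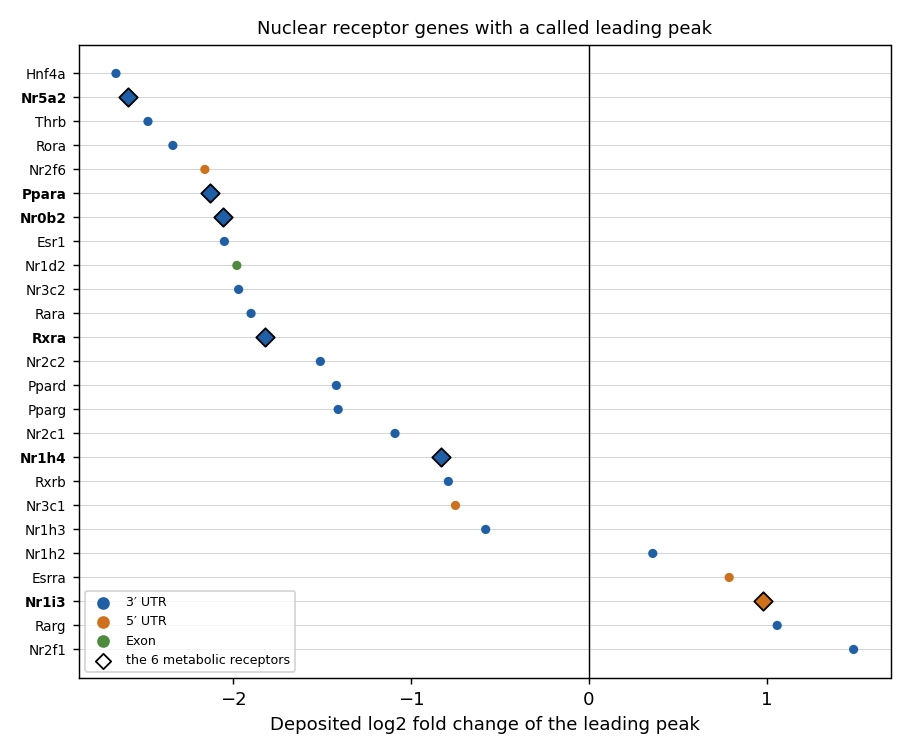
Deposited log2 fold change of the leading peak (horizontal axis) for the 25 nuclear receptor genes with a called leading peak, ordered from the most negative at the top; diamonds and bold names mark the 6 metabolic receptors and colours the annotated feature. The values run from -2.66 in Hnf4a to 1.49 in Nr2f1, and Nr1i3 is the only one of the 6 to the right of 0.

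Genes for the cofactors that nuclear receptors recruit lay mostly on the negative side. Of 20 coregulator genes, 18 had a listed peak, and 14 had a negative and 2 a positive called leading peak, with a median of -1.11. Among all genes the shares were 47.6% negative and 33.6% positive, with a median of -0.52, and the difference was not tested. The corepressor gene Ncor1 (-1.41, log10 FDR -67.0) had a negative 3′ UTR peak in the authors' deposited table. So were the histone acetyltransferase genes Ep300 (-1.65, log10 FDR -106) and Crebbp (-1.50, log10 FDR -56.1) in the authors' deposited table.

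Genes known as targets of these receptors had leading peaks of either sign. Of 25 PPARα target genes, 18 had a listed peak, with 9 negative, 7 positive and 2 uncalled leading peaks and a median of -0.04. The carnitine palmitoyltransferase genes Cpt2 (-2.19) and Cpt1a (-1.99) had negative 3′ UTR peaks, both at the FDR floor in the authors' deposited table. Another called 3′ UTR peak of Cpt1a was positive there, at 0.63 (log10 FDR -18.9, authors' deposited table). The fatty acid binding protein gene Fabp1 stood at 0.68, at the same floor, in a peak labelled 5′ UTR that spans 5197 bp of genome in the authors' deposited table. Counted by peak, this list had 11 negative and 14 positive calls among 27 peaks, where Ppara itself had 1 of each. Over all listed peaks the shares were 40.6% negative and 35.6% positive. Of the 16 peaks of this list in the 3′ UTR, 9 were negative and 5 positive, and all 6 in the 5′ UTR were positive. Among all listed 3′ UTR peaks 48.9% were negative and 32.1% positive, and 53.4% of listed 5′ UTR peaks were positive. Overlapping peaks of a gene, as in Acadvl, were each counted.

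Of 26 target genes of CAR and PXR, only 8 had a listed peak, with 5 negative and 3 positive leading peaks and a median of -0.77. Cyp1a2, a drug-oxidizing cytochrome P450, stood at -1.94 and Gstm1, a glutathione transferase, at 0.67, both labelled 5′ UTR and at the FDR floor in the authors' deposited table. Gstm1 has close paralogs, and how reads that match several of them were counted is not stated. Cyp3a13 (-1.18) and the export pump gene Abcc2 (-1.08) had negative 3′ UTR peaks in the authors' deposited table. Abcc2 also held called positive peaks, at 0.56 in the 3′ UTR and 1.16 in the 5′ UTR (authors' deposited table).

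Among 24 genes listed under FXR, SHP and LRH-1, mostly of bile acid and sterol handling, 17 had a listed peak. Of their leading peaks 10 were called negative and 6 positive, with a median of -0.62. The list also holds genes of plasma proteins, Fgg and Apoc2 among them, which are part of these counts. The hydroxylase gene Cyp8b1 (-2.17) and the synthesis gene Hsd3b7 (-2.18) stood near Nr0b2 and Ppara in size in the authors' deposited table. The Cyp8b1 peak is labelled 5′ UTR and spans 1950 bp of genome, while that of Hsd3b7 is labelled 3′ UTR. The bile acid uptake carrier gene Slc10a1 (-1.82) and the conjugation enzyme gene Baat (-1.36) were also negative in the authors' deposited table, all 4 at the FDR floor. Called positive 5′ UTR peaks were also listed for Baat, at 0.89, and for Hsd3b7, at 0.97 and 0.98 (authors' deposited table). By peak, this list was nearly even, with 16 negative and 15 positive calls among 33 peaks. Over all listed peaks the shares were 40.6% negative and 35.6% positive. Of its 20 peaks in the 3′ UTR 14 were negative, while 9 of its 12 in the 5′ UTR were positive. Among all listed peaks of these classes, 48.9% in the 3′ UTR were negative and 53.4% in the 5′ UTR were positive. Peaks of Hsd3b7, Apoc2 and Abcb4 overlap others of the same gene, and each was counted. The peak counts of this list are therefore not counts of separate regions. Over all genes 47.6% had a negative and 33.6% a positive called leading peak, and whether any of these lists differs from other genes was not tested.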

How the data were processed

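The 12 libraries (m6A-IP and input, 3 replicates per genotype) were processed with HISAT2 2.1.0 and the build mm10, as named by the submitters' processing notes. How peaks were called, filtered and compared, and whether replicates were pooled, is not given in the sources used here. Only the authors' own comparison was used. It lists, per the file headers, 1 log2 fold change per peak with a log10 FDR (each handled here as a deposited score, the FDR having a floor) and a deposited p-value rounded to 2 decimals. Of 17692 rows, 189 had no gene name and another order of cells, and were left out; none carried the gene ID of a named gene.

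Peaks were selected by gene name and counted by sign at an FDR of 0.05. The leading peak of a gene had the smallest FDR, ties going to the larger change. RefSeq spans and start windows (GRCm38.p6) were matched by symbol for 7 of 7 genes. The 7 genes, the 5 other gene lists and the alternatives were chosen with earlier results of these data known. Named genes were all 7 receptors and, from each list, up to 4 called genes by FDR, of which some are not reported here by name; genes named as the ends of a range were chosen after their values were seen. No model was fitted, since no values per library were used; depth, and the precision it gives, is unknown. The counting was tested on simulated data. Python 3.11.15, numpy 2.4.6, pandas 2.3.3 and matplotlib 3.10.9 were used.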

Additional observations from a re-analysis of the deposited data

How the results depend on the processing

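No paired analysis was possible because the table holds a single comparison of the genotypes and no values per library; for the same reason no replicate could be left out. The alternative that keeps rows without a gene name was not run, as they give no name. At an FDR threshold of 0.01 or of 0.001, 1 receptor peak was called positive, that of Nr1i3, and 0 receptors held both signs; over all peaks the positive calls at 0.001 were 4119. When changes had to reach 1 in absolute size on the log2 scale, 0 receptor peaks were positive, 0 receptors held both signs, all positive calls were 1366, and 6 bile acid axis genes had a negative leading peak. With peaks of at most 1000 bp, 3 receptor peaks were negative, all of Rxra or Nr1h4, 2 receptors had a negative leading peak, 0 held both signs, and Ppara was left with its positive peak, so that its leading value turned to 0.89 (authors' deposited table); all calls were then 4375 negative and 3875 positive, and 7 coregulator genes were negative. These changes follow from fewer peaks passing. Averaged over all its peaks, Ppara stood at -0.62, Nr5a2 at -1.99 and Rxra at -1.58 in place of their leading values. The other 63 of 78 counts stayed within 1.5 times. With the table's median subtracted from every change and the deposited FDR kept, the receptor counts were 8 negative and 2 positive. No receptor call could change in that setting, since the median was positive and both positive receptor values lie above it.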

Other observations

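Ppara was not the only receptor gene with a negative peak labelled 3′ UTR and a positive one labelled 5′ UTR. Of the 5 nuclear receptor genes with called peaks in both UTRs, 3 had this arrangement by the leading peak of each UTR. In the authors' deposited table Hnf4a had -2.66 in the 3′ UTR and 0.61 in the 5′ UTR by label. The difference was -3.27 (3′ minus 5′), close to the -3.02 of Ppara. A further called 3′ UTR peak of Hnf4a, downstream of the leading one, was positive at 0.67 (log10 FDR -56.3, authors' deposited table). Nr1h3 had -0.58 in the 3′ UTR and 0.53 in the 5′ UTR by label in the authors' deposited table, a difference of -1.11. The peaks labelled 5′ UTR span 3328 bp of genome in Hnf4a and 9208 bp in Nr1h3. The label therefore need not place their change within the 5′ UTR. Rara was negative in both UTRs, with -1.90 in the 3′ UTR and -1.26 in the 5′ UTR in the authors' deposited table. In Nr2f6 the order was turned, with a 3′ value of -1.14 and a 5′ value of -2.16 in the authors' deposited table. Among all 1475 genes with called peaks in both UTRs, 35.3% had a negative 3′ and a positive 5′ value, the median difference was -0.45, and 4.81% had a lower difference than Ppara. These genes were picked out after their values were seen, and the arrangement was not tested for nuclear receptors.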
